A study of Mus musculus with 40 samples.

Results

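The unfolded protein and heat shock genes are 36 genes of protein folding, followed here across 40 RNA-seq libraries of the pregnant mouse: 24 genes of the endoplasmic reticulum (ER), 10 cytosolic heat shock genes and 2 mitochondrial chaperonin genes. They were chosen by name, as ER chaperones, genes of the unfolded protein response and cytosolic heat shock genes, and are 36 of the 23079 genes in the deposited count matrix. All 36 were matched by their gene identifier, and all 36 passed the filter on low counts in every comparison. The study asked how human chorionic gonadotropin (hCG), a hormone of the placenta that signals through the receptor of luteinizing hormone, alters transcripts of the cervix and of the myometrium, the muscular wall of the uterus. Pregnant C57BL/6 mice, an inbred strain, were injected intraperitoneally with hCG or, as controls, with phosphate-buffered saline (PBS), and both tissues were collected at 18.5 days post coitum, the day the labels call term. The 4 groups of 10 libraries are cervix of hCG mice, cervix of PBS mice, myometrium of hCG mice and myometrium of PBS mice. All animals were pregnant and none was left uninjected, and the sources used here give neither the hCG dose nor the time between injection and collection. The labels number the libraries within each group, without saying that a number is an animal, so p-values measure the spread between these libraries. In whole tissue, fewer cells of a type and less RNA per cell cannot be told apart.

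Secretory and membrane proteins fold in the ER with the help of chaperones such as BiP (Hspa5), lectins that hold glycoproteins and disulfide isomerases that pair cysteines. When unfolded protein builds up there, the sensors ATF6, IRE1 (Ern1) and PERK (Eif2ak3) raise transcription of chaperone and degradation genes and, through PERK, lower translation in general while favouring ATF4. In the cytosol, the heat shock factor HSF1 (Hsf1) raises inducible chaperones of the HSP70, HSP40 and small heat shock families. The uterus and cervix of late pregnancy contain smooth muscle and matrix-producing cells, and both make secreted and contractile proteins that need folding.

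Promoter sequences show the compartments side by side. RefSeq windows of GRCm38.p6, from 250 bases before to 50 after each start, were found for 29 of the 36 genes, and each was searched on both strands. The ER stress response element (ERSE) was searched as CCAAT and CCACG separated by 9 bases; it is bound by ATF6 together with the CCAAT-binding factor NF-Y. It was present in 7 of 21 ER genes and 0 of 6 cytosolic genes, against 37 of all 27025 genes (0.137%). The single elements of these 7 genes are printed first, 5′ to 3′ in the orientation of the element, with the 2 ends in capitals, because they are the sequence these 7 genes have in common.

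Hspa5, chr2:34772025-34772043 (+): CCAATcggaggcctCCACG
Hsp90b1, chr10:86705638-86705656 (-): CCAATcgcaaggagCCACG
Hsp90b1, chr10:86705533-86705551 (+): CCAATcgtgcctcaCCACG
Canx, chr11:50325800-50325818 (-): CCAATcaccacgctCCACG
Calr, chr8:84847075-84847093 (+): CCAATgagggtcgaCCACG
Dnajc3, chr14:118937827-118937845 (+): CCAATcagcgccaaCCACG
Creld2, chr15:88819520-88819538 (-): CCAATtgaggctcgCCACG
Pdia6, chr12:17266491-17266509 (+): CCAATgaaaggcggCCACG

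The 9 bases between the ends differ in every one of these elements, while the spacing is the same. Hsp90b1, the ER member of the HSP90 family, carried an element on each strand. The related ERSE-II, ATTGG and CCACG separated by 1 base, was found in Dnajb11 and Herpud1 and in 12 of all genes (0.0444%). In Dnajb11 it lies after the annotated start.

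Dnajb11, chr16:22857852-22857862 (+): ATTGGcCCACG
Herpud1, chr8:94386377-94386387 (+): ATTGGgCCACG

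A heat shock element, GAA, TTC and GAA each separated by 2 bases, was found in Hsph1 and in the shared promoter of Hspd1 and Hspe1, and in 179 of all genes (0.662%). Hspd1 and Hspe1 encode the 2 partner proteins of the mitochondrial chaperonin and are transcribed away from each other. The Hspe1 window and the Hspd1 window chr1:55087883-55088182 overlap and hold the same pair of overlapping elements. The other Hspd1 window, chr1:55088194-55088493, around the outer annotated start at 55088243, holds no such element. The pair lies after that outer Hspd1 start. The Hsph1 element lies after the annotated start.

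Hsph1, chr5:149636288-149636300 (+): GAActTTCcaGAA
Hspd1 and Hspe1, chr1:55088064-55088076 (+): GAAccTTCcgGAA
Hspd1 and Hspe1, chr1:55088059-55088071 (-): GAAggTTCtaGAA

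The element UPRE, TGACG followed directly by TGG, was in none of the 29 genes and in 0.714% of all genes. CARE, which ATF4 binds and which was searched as TGATG, any base and AA, was in Herpud1 alone and in 4.51% of all genes. The plain CCAAT box, which is also part of every ERSE, was in 24 of the 29 genes and in 41.1% of all genes. A match describes letters and not a bound site, and no match says only that these letters are not in the window.

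The Hspa5 and Hsp90b1 promoters are shown in full before the start, 250 bases each on the strand of the gene, with the ends of each ERSE in capitals, because they show the position of the element. The Hspa5 element begins 65 bases before the start.

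Hspa5, chr2:34771840-34772089 (+): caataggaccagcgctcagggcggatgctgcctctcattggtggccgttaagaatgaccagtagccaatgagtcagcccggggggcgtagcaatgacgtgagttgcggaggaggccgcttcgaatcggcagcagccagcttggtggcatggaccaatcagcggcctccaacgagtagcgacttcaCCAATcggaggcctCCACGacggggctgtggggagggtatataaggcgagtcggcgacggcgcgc
Hsp90b1, chr10:86705445-86705694 (-): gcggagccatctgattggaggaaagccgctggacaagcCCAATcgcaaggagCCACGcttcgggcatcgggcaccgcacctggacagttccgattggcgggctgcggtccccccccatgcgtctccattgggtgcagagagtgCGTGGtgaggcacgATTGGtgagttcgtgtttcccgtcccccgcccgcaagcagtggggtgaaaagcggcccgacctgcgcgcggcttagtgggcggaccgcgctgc

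Hspa1a and Hspa1b, the stress-inducible HSP70 genes, are near-identical copies on chromosome 17, and this bears on their counts. Their 250 bases before the start differ at 3 positions, in capitals below, and the whole 300-base windows at 4.

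Hspa1a, chr17:34972157-34972406 (-): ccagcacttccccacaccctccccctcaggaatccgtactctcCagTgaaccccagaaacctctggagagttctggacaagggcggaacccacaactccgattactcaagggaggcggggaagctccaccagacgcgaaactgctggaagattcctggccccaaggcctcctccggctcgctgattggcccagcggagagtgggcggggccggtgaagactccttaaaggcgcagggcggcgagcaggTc
Hspa1b, chr17:34959239-34959488 (-): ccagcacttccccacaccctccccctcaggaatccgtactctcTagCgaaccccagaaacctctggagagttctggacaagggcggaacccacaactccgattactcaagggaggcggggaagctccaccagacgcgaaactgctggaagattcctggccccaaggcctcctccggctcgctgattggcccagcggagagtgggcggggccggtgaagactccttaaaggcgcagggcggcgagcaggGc

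Of all 50-base windows of the GENCODE transcript of Hspa1b, 62.3% occur in that of Hspa1a, and 58.8% the other way. Reads from shared stretches could have been given to either gene, so the values of both are uncertain.

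Total counts were 6613775 to 22274244 in hCG cervix, 7255131 to 25028360 in PBS cervix, 5449239 to 20603741 in hCG myometrium and 5933199 to 20108002 in PBS myometrium libraries. Levels are CPM, counts scaled to the size of each library and by edgeR's TMM factors, and no 2 libraries of a group were as alike as sampling noise. Markers followed the tissue labels: in PBS mice all 10 squamous epithelium markers were higher in cervix and all 8 smooth muscle markers lower. Some libraries stood apart. PBS cervix libraries 5 to 8 held 3.5% to 17.5% of their counts in the single gene Lars2, against at most 0.121% in hCG cervix, and the Lars2 share was also high in 3 myometrium libraries, number 3 of the hCG mice (5.22%) and numbers 2 (5.63%) and 8 (4.61%) of the PBS mice. In hCG cervix, library 1 had the highest skeletal muscle marker sum (5855 CPM), library 3 the highest adipocyte marker sum (2894 CPM) and library 5 the highest smooth muscle (24986 CPM) and urothelium (2277 CPM) marker sums. Summed yolk sac and fetal liver markers ran from 208 to 30876 CPM in hCG myometrium and from 78.0 to 19310 CPM in PBS myometrium. Results that rest on the cervix are therefore also given without hCG cervix libraries 1, 3 and 5 and without PBS cervix libraries 5 to 8.

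The genes spanned a wide range of abundance. Per kilobase of exon (RPKM, CPM divided by exon length), the constitutive chaperones Hsp90ab1 (361 ± 38.0 RPKM) and Hspa8 (331 ± 47.2 RPKM) led in hCG cervix (SD, n = 10), and they also led in PBS cervix (426 ± 36.9 and 393 ± 105 RPKM). In hCG myometrium, Hspa8 (468 ± 69.4 RPKM) and the small heat shock protein Hspb1 (449 ± 159 RPKM) led, as they did in PBS myometrium (434 ± 83.6 and 373 ± 169 RPKM). These neighbours differed by less than their spread, as did the next in order: the disulfide isomerase P4hb and the calcium-binding lectin Calr followed at 391 ± 59.7 and 375 ± 43.9 RPKM in hCG myometrium. Hsf1 was the lowest in every group, at 2.03 to 2.48 RPKM, and Ddit3, the transcription factor CHOP of prolonged ER stress, was next at 4.42 to 4.64 RPKM. The median coefficient of variation over libraries was 23.0% for ER genes in hCG cervix, 25.3% in PBS cervix, 15.2% in hCG myometrium and 14.6% in PBS myometrium. For cytosolic genes it was 28.3%, 27.1%, 20.03% and 26.0% in the same groups.

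Summed over the 24 ER genes, the level had a lowest value of 4382, a median of 5932 and a highest value of 7201 CPM in hCG cervix, against 4481, 8007 and 9253 CPM in PBS cervix. In hCG myometrium it was 6093, 8592 and 9557 CPM, against 5320, 7259 and 7605 CPM in PBS myometrium. All 4 ranges overlapped. A few libraries held many of the low values: hCG cervix libraries 3 and 5 had the lowest value of their group for 10 and 11 of the 24 genes, PBS cervix library 6 for 17, hCG myometrium library 6 for 14 and PBS myometrium library 6 for 15. The 10 cytosolic genes summed to 2619, 3431 and 4197 CPM in hCG cervix, against 2624, 4076 and 5072 CPM in PBS cervix. They summed to 3388, 4588 and 5263 CPM in hCG myometrium, against 2946, 4237 and 4868 CPM in PBS myometrium.

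**Figure D1:**
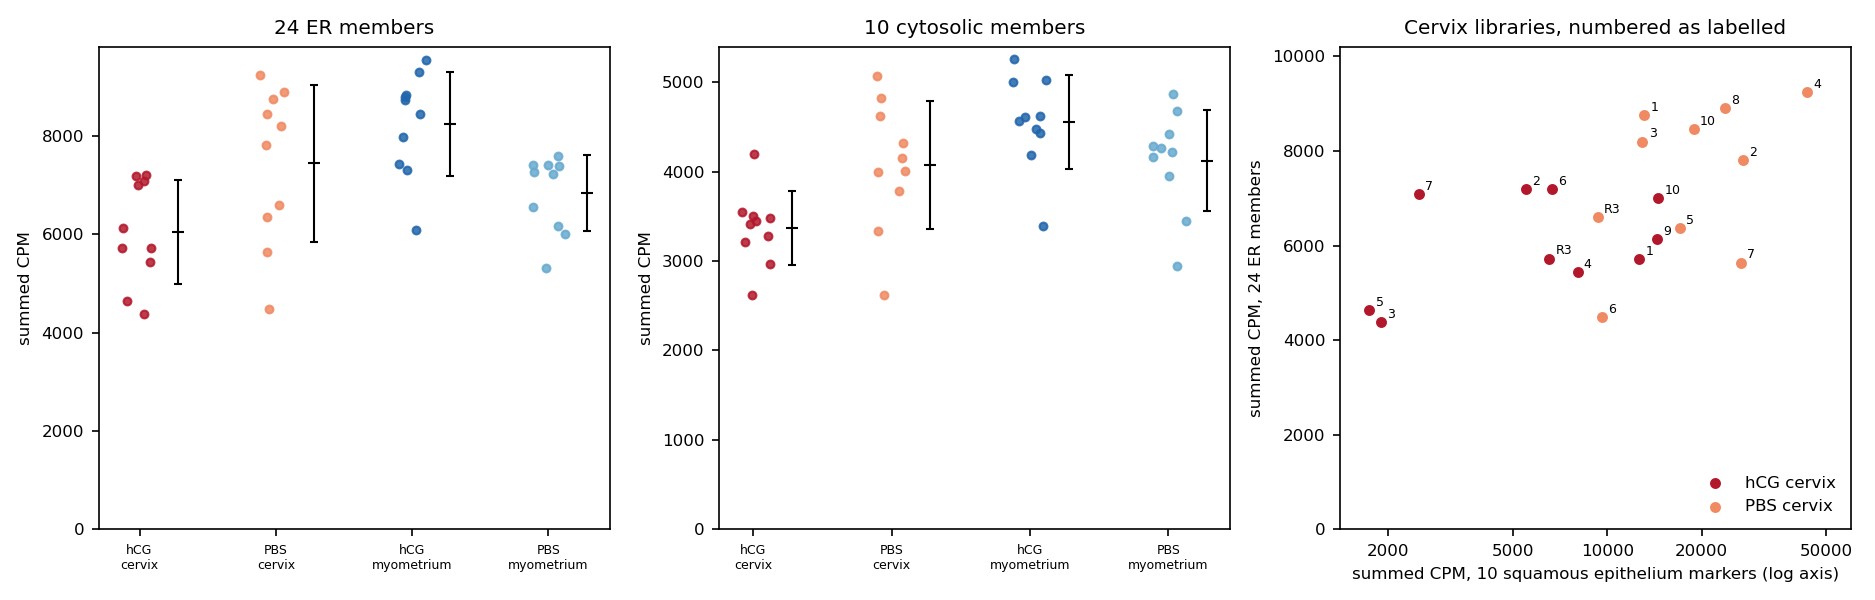
Summed CPM of the 24 ER genes (left) and the 10 cytosolic genes (middle) in each library, with mean ± SD of the 10 libraries per group, and (right) the ER sum of each cervix library against the summed CPM of 10 squamous epithelium markers on a log axis. In the right panel hCG cervix libraries 3 and 5 sit at the lower left, and PBS cervix library 4 at the upper right. Not all libraries follow that order: hCG cervix library 7 has a low marker sum and a high ER sum for its group, and PBS cervix library 7 the reverse.

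In the cervix, 2 ER and 3 cytosolic genes were lower after hCG. Of the 36 genes these 5 fell and none rose: the cytosolic cochaperones Dnajb1 and Bag3, the inducible HSP70 gene Hspa1b, the ER chaperone Hyou1 and the transcription factor Atf4 (edgeR's quasi-likelihood test, Benjamini-Hochberg adjusted p under 0.05). Among all genes tested 8.91% were called, 4.17% lower and 4.74% higher. The called genes lie, on GRCm38.p6, at chr8:83608175-83612653 (Dnajb1), chr7:128523583-128546981 (Bag3), chr17:34956429-34959238 (Hspa1b), chr9:44379490-44392369 (Hyou1) and chr15:80255184-80257545 (Atf4). The log2 fold change was negative for 34 of the 36 genes. Its median was -0.27 for the 24 ER genes and -0.40 for the 10 cytosolic genes, against 0.007 over all 14932 genes tested.

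Dnajb1, an HSP40 that hands unfolded clients to HSP70, had a lowest value of 35.2, a median of 58.5 and a highest value of 71.7 CPM in hCG cervix, against 64.5, 89.6 and 154 CPM in PBS cervix. The ranges overlapped at their edges, and all 10 hCG libraries lay below the PBS median. It averaged 56.6 ± 13.2 CPM in hCG cervix and 98.8 ± 28.2 CPM in PBS cervix (SD, n = 10 each), a log2 fold change of -0.79 ± 0.17 (SE; 0.578-fold; adjusted p = 0.0263, edgeR).

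Hspa1b stood at 24.4, 68.6 and 85.9 CPM in hCG cervix (lowest, median and highest), against 66.6, 101 and 145 CPM in PBS cervix. All hCG libraries were again below the PBS median. The log2 fold change was -0.64 ± 0.18 (0.641-fold; adjusted p = 0.0370, edgeR), and its near-copy Hspa1a had -0.56 ± 0.26 without passing (adjusted p = 0.157). Bag3, which releases clients from HSP70 and joins it to the small heat shock proteins, stood at 21.7, 31.0 and 38.0 CPM in hCG cervix, against 30.2, 41.0 and 76.7 CPM in PBS cervix. Its ranges overlapped more, since the lowest PBS libraries lay within the hCG range, and it had a log2 fold change of -0.53 ± 0.16 (0.695-fold; adjusted p = 0.0480, edgeR).

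Hyou1, a large HSP70-like chaperone of the ER lumen, stood at 67.02, 97.4 and 171 CPM in hCG cervix, against 117, 161 and 237 CPM in PBS cervix. In 9 of 10 hCG libraries it was below the PBS median, and the log2 fold change was -0.64 ± 0.17 (0.640-fold; adjusted p = 0.0321, edgeR). Atf4, the factor translated when PERK is active, stood at 94.1, 124 and 155 CPM in hCG cervix, against 103, 191 and 266 CPM in PBS cervix. All 10 hCG libraries were below the PBS median of Atf4, and the lowest PBS libraries lay within the hCG range. Its log2 fold change was -0.55 ± 0.15 (0.681-fold; adjusted p = 0.0333, edgeR).

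The other 31 genes did not pass in cervix. Creld2, an ER-stress-inducible cofactor, lay just outside the threshold with a log2 fold change of -0.55 ± 0.17 (adjusted p = 0.0501, edgeR). Edem1, which feeds glycoproteins to degradation, had -0.40 ± 0.14 (adjusted p = 0.0634), Hspb1 -0.85 ± 0.29 (adjusted p = 0.0646) and the secreted ER-stress factor Manf -0.50 ± 0.17 (adjusted p = 0.0694, edgeR). All 10 hCG libraries lay below the PBS median for each of these 4 genes. Hspa5 itself stood at 359, 594 and 796 CPM in hCG cervix, against 302, 861 and 936 CPM in PBS cervix, with a log2 fold change of -0.28 ± 0.19 (adjusted p = 0.330, edgeR). The ranges of Hspa5 overlapped fully, although every hCG library was below the PBS median. Ddit3 had 7.58 ± 2.16 CPM in hCG cervix and 7.66 ± 2.03 CPM in PBS cervix. Of the 3 sensors, Ern1 had a log2 fold change of -0.43 ± 0.22, Eif2ak3 of -0.18 ± 0.14 and Atf6 of -0.10 ± 0.10, and the factor Xbp1 had -0.10 ± 0.13. The disulfide isomerases lay between -0.42 (P4hb) and -0.18 (Pdia4), and the constitutive cytosolic chaperones Hsp90ab1, Hspa8 and Hsp90aa1 had -0.23, -0.23 and -0.06. The degradation genes Sel1l and Herpud1 had -0.11 and -0.10, Hsf1 had -0.27 ± 0.17, and the mitochondrial Hspd1 and Hspe1 had -0.10 and 0.09. At an unadjusted p under 0.05 there were 14 genes, 8 ER and 6 cytosolic, all lower after hCG, where 13.5% of all genes were lower at that level. No gene of the 36 had hCG and PBS cervix ranges without overlap, which 0.0469% of all genes did.

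Other measurements moved with the cervix result. Summed squamous epithelium markers were 1740 to 14557 CPM in hCG cervix, against 9336 to 43368 CPM in PBS cervix, with 1 of 10 markers called lower. Neutrophil markers summed to 11.7 to 233 CPM in hCG cervix, against 8.53 to 24.7 CPM in PBS cervix (4 of 5 called higher). All 5 urothelium markers were called higher, but the median of their sum was 18.7 CPM in hCG cervix and 18.01 CPM in PBS cervix. The high values were in hCG libraries 5 (2277 CPM), 3 (620 CPM) and R3 (187 CPM), the other 7 lying at 8.52 to 22.2 CPM, against 6.38 to 64.6 CPM in PBS cervix. Columnar secretory epithelium markers had a median sum of 5797 CPM (1068 to 14025 CPM) in hCG cervix and 12287 CPM (5608 to 15868 CPM) in PBS cervix, with none of 5 tested called. Macrophage and monocyte markers summed to 313 to 1022 CPM in hCG cervix, against 148 to 547 CPM in PBS cervix (2 of 7 called higher), and plasma cell markers to 223 to 474 CPM, against 308 to 942 CPM (1 of 2 tested called lower). Of the endothelium, adipocyte and yolk sac markers 1 was called higher in each list. The part of these cells was not tested. With the squamous score as a covariate, none of the 36 genes and no other gene was called. Squamous sums were mostly lower in hCG than in PBS cervix, so this fit cannot tell hCG and squamous content apart. Its median log2 fold change was -0.09 for ER genes and -0.30 for cytosolic genes. The 5 genes then had -0.34 (Dnajb1), -0.39 (Hyou1), -0.25 (Atf4), -0.28 (Hspa1b) and -0.42 (Bag3). Without hCG libraries 1, 3 and 5 no gene of the whole table was called either (ER median -0.15, cytosolic median -0.30). The 5 genes then lay between -0.69 (Dnajb1) and -0.45 (Atf4). None of the 36, and 1 gene of the whole table, was called without PBS libraries 5 to 8 (ER -0.37, cytosolic -0.32). There the 5 lay between -0.78 (Dnajb1) and -0.28 (Bag3). All 5 were negative in all 35 alternatives. Leaving out single libraries, the number of genes called lower was 0 without hCG library 3 or PBS library 4, 7 or 8, and 1 without hCG library 5 or PBS library 10. It was 3 without hCG library 2 or 7, 9 without hCG library 9 or 10, and 11 without PBS library 6. The number of genes called in the whole table also varied widely when single libraries were left out, as given with the processing alternatives. Dnajb1 had an adjusted p of 0.0506 to 0.0562 without each of the 4 libraries that left none called. DESeq2 called 11 genes lower, the same 5 with Manf, Creld2, P4hb, Edem1, Hsp90ab1 and Hspb1, and it called more genes in the whole table too. With the depth class of the libraries (over or under a limit between the deep and the shallow libraries) as a term, Hyou1, Atf4 and Dnajb1 were called.

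**Figure D2:**
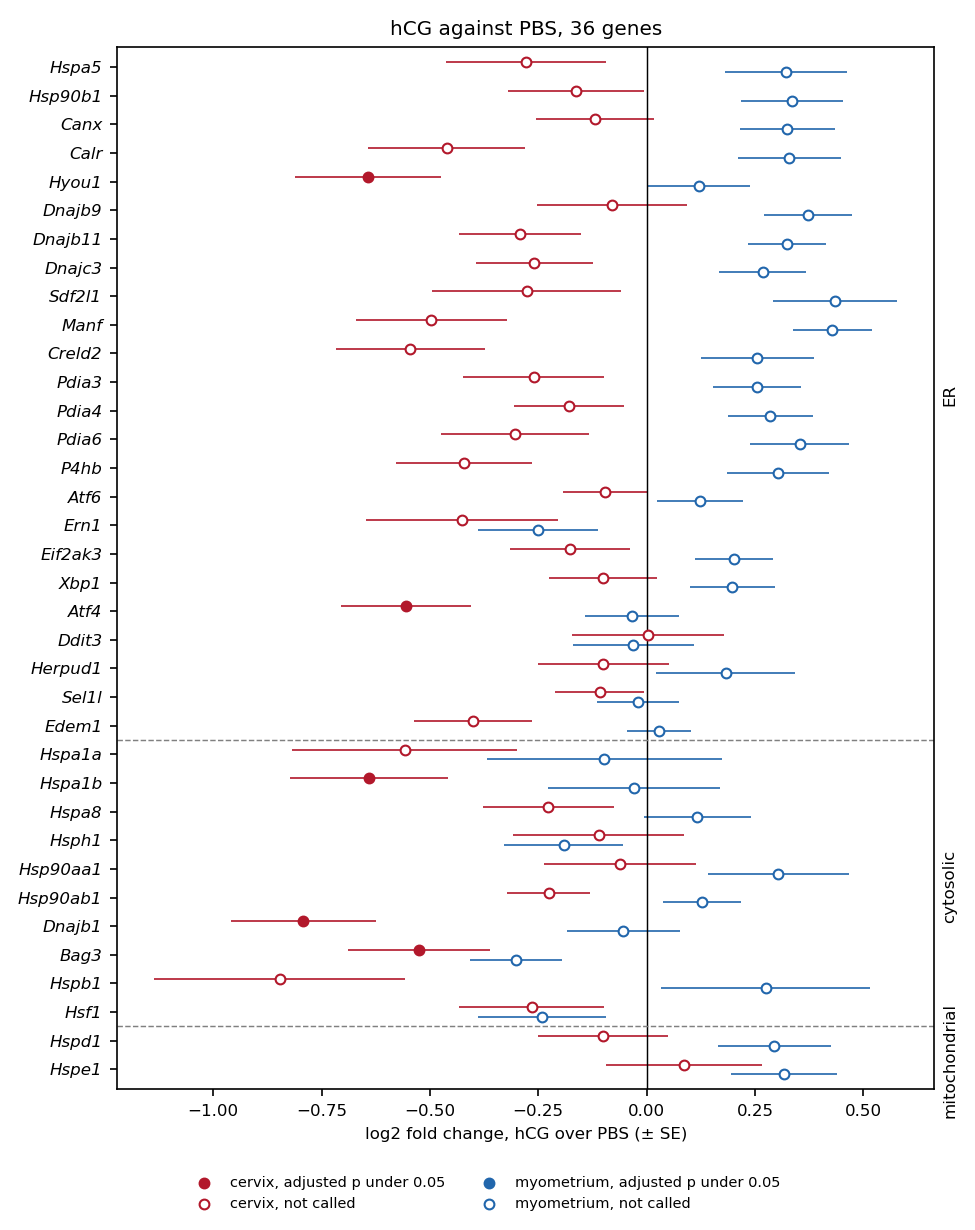
Log2 fold change of hCG over PBS with its SE for all 36 genes, in cervix (red) and in myometrium (blue), with filled points for an adjusted p under 0.05. Most cervix points lie left of 0 and the ER chaperones of the myometrium lie right of it; the filled points are Hyou1, Atf4, Hspa1b, Dnajb1 and Bag3 in cervix.

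In the myometrium, none of the 36 genes passed edgeR's test, in a comparison where 2 of 14517 genes did (0.0138%; 0.00689% each way). Of the ER genes 20 of 24 had a positive log2 fold change, among them all 11 chaperones and cofactors and all 4 disulfide isomerases, with a median of 0.26 against 0.008 over all genes tested. Those 11 and 4 genes had medians of 0.32 and 0.29. The 10 cytosolic genes had 4 positive and 6 negative values and a median of -0.04, which was 0.09 with limma voom weights and 0.06 with a yolk sac covariate. At an unadjusted p under 0.05 there were 17 of the 36 genes, 14 ER genes and both mitochondrial chaperonins with positive values and Bag3 with a negative one. Of all genes tested, 6.41% were higher and 9.11% lower at that level.

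Manf, at chr9:106888753-106891938, came closest. It stood at 102, 123 and 146 CPM in hCG myometrium (lowest, median and highest), against 67.1, 93.3 and 112 CPM in PBS myometrium, so that all 10 hCG libraries were above the PBS median and the ranges overlapped between 102 and 112 CPM. Its log2 fold change was 0.43 ± 0.09 (adjusted p = 0.0917, edgeR). It passed without PBS library 2, 3 or R3, with adjusted p-values of 0.0435, 0.0496 and 0.0479 (edgeR). Dnajb9, a BiP cofactor induced through IRE1, stood at 67.8, 77.6 and 108 CPM in hCG myometrium, against 49.4, 61.2 and 76.9 CPM in PBS myometrium, with a log2 fold change of 0.37 ± 0.10 (adjusted p = 0.1004, edgeR). Dnajb11, another BiP cofactor, stood at 70.3, 87.2 and 102 CPM in hCG myometrium, against 46.9, 73.3 and 77.5 CPM in PBS myometrium (log2 0.32 ± 0.09, adjusted p = 0.102, edgeR). For Dnajb9 and Dnajb11 the upper PBS libraries reached into the lower part of the hCG range. DESeq2 called these 3 genes higher (adjusted p = 0.0041 for Manf and 0.034 for each of the others), among 384 genes in all.

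Hspa5 had 868 ± 204 CPM in hCG myometrium and 700 ± 119 CPM in PBS myometrium (log2 0.32 ± 0.14, adjusted p = 0.269, edgeR). Calr had 1079 ± 126 CPM and 864 ± 169 CPM in the same order, and Sdf2l1, an ER-lumen partner of the cofactor Dnajb11, 20.4 ± 3.93 CPM and 15.2 ± 3.80 CPM (SD, n = 10 each). Atf4, which fell in cervix, was at 120 ± 19.7 CPM in hCG myometrium and 124 ± 20.7 CPM in PBS myometrium. The sensors had log2 fold changes of 0.20 ± 0.09 (Eif2ak3), 0.12 ± 0.10 (Atf6) and -0.25 ± 0.14 (Ern1). Hspb1 was widely spread, with 463 ± 164 CPM in hCG myometrium and 385 ± 175 CPM in PBS myometrium. Bag3 had 22.1 ± 3.28 CPM in hCG myometrium and 27.4 ± 4.49 CPM in PBS myometrium (log2 -0.30 ± 0.11, adjusted p = 0.155, edgeR). No marker list held a called gene in this comparison. Summed yolk sac and fetal liver markers had a median of 3360 CPM in hCG myometrium and 602 CPM in PBS myometrium. Decidua and placenta markers had medians of 115 CPM (2.16 to 1321 CPM) and 8.34 CPM (1.16 to 232 CPM) in the same order. The part of these tissues in the myometrium values was not tested. With the yolk sac score as a covariate none of the 36 genes was called. None was called without it either, so that count cannot decide the question.

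The question whether the hCG response differed between the tissues was tested directly, as cervix minus myometrium in 1 fit of all 40 libraries. Manf, the secreted ER-stress factor, was the only one of the 36 genes that passed, with a difference in log2 fold change of -0.93 ± 0.20 (adjusted p = 0.0392, edgeR); among all 15624 genes tested, 0.352% passed, 0.224% lower and 0.128% higher. Its cervix levels were 49.5, 76.0 and 99.8 CPM in hCG mice, against 58.7, 113 and 178 CPM in PBS mice, beside the myometrium values above. The cervix range of hCG mice thus ended below the myometrium range of hCG mice, while in PBS mice the tissues overlapped.

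Several other ER genes missed the threshold by little. The differences were -0.73 ± 0.19 for P4hb and -0.62 ± 0.16 for Dnajb11 (adjusted p = 0.0582 each, edgeR), and -0.80 ± 0.21 for Calr, -0.77 ± 0.21 for Hyou1 and -0.80 ± 0.22 for Creld2 (adjusted p = 0.0607 each, edgeR). Dnajb1 had -0.74 ± 0.21 (adjusted p = 0.0713) and Hspb1 -1.12 ± 0.39 (adjusted p = 0.110, edgeR). The median difference was -0.52 over ER genes, with 23 of 24 negative, and -0.37 over cytosolic genes, with 9 of 10 negative, against 0.03 over all genes. At an unadjusted p under 0.05 there were 22 of the 36 genes, all negative, including all 11 ER chaperones and cofactors, where 9.52% of all genes were lower at that level. The comparison shares its libraries with those in each tissue and adds no separate evidence to them.

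The call of Manf was narrow. Its difference ran from -1.16 to -0.80 over 50 alternatives and passed in 33 of them. It was lost (adjusted p = 0.0512 to 0.0689, edgeR) without hCG cervix library 2, 3, 4 or 6, hCG myometrium library 1, 2, 3 or 7, PBS cervix library 1, 4, 7 or 8, or PBS myometrium library 6, 10 or R4. Without hCG cervix libraries 1, 3 and 5 no gene of the 36 was called, Manf having -0.80 (adjusted p = 0.0857, edgeR). The remaining loss was in the fit that takes the label number into account, given with the processing alternatives. Without PBS cervix libraries 5 to 8, 15 were called lower, 14 ER genes and Dnajb1. Among single libraries the count was 13 without PBS cervix library 6, 7 without PBS cervix library R3 or hCG cervix library 9, 8 without hCG cervix library 10 and 2 without PBS cervix library 5. DESeq2 called 10 of the 36 lower. The count over the whole table, 55 in the main fit, moved with these settings too. It was much higher without PBS cervix libraries 5 to 8 and with DESeq2, and lower without hCG cervix libraries 1, 3 and 5. It also varied widely when single libraries were left out, as given with the processing alternatives.

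**Figure D3:**
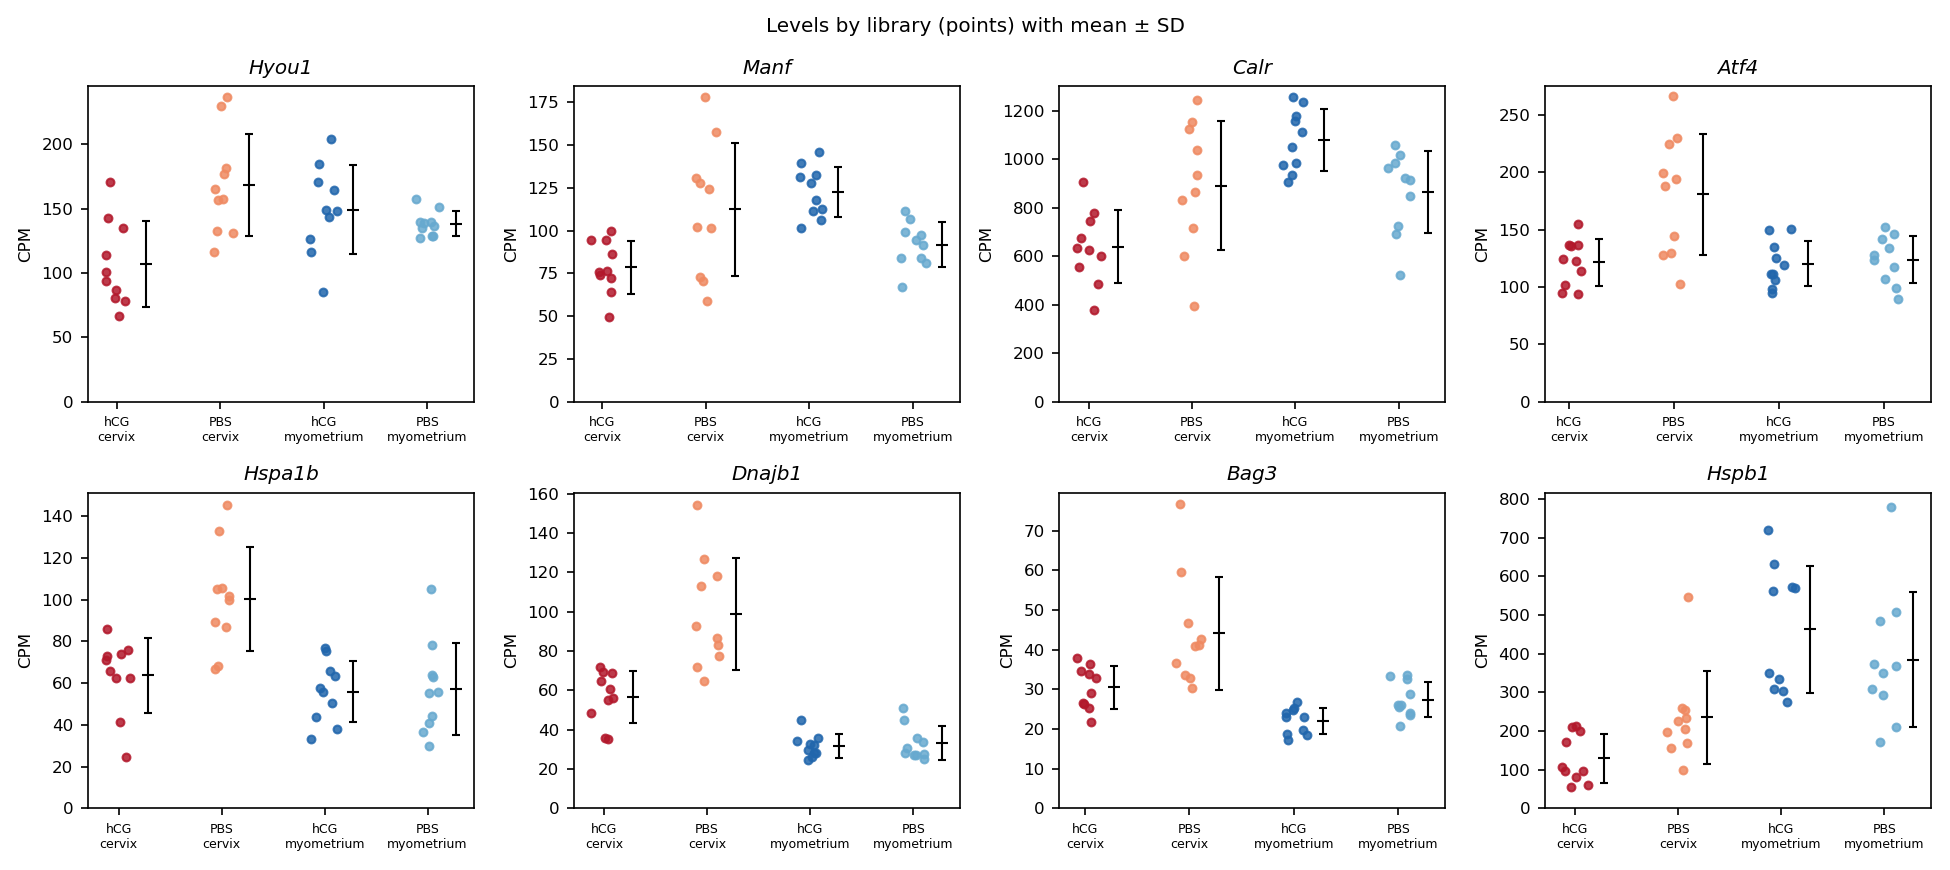
CPM of 8 genes in each of the 40 libraries, with mean ± SD of the 10 libraries per group. Hyou1, Atf4, Hspa1b, Dnajb1 and Bag3 are lower in hCG cervix than in PBS cervix, Manf of hCG mice is lower in every cervix library than in any myometrium library, and Hspb1 reaches its highest values in myometrium.

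The tissues were also compared within each treatment, with the same libraries as the hCG comparisons. The difference between hCG and PBS mice in these tissue differences is the same contrast as the one just given, in which Manf alone passed. In hCG mice, cervix against myometrium, 17 of the 36 genes were lower and 3 higher (of all genes 43.7% were called, 19.4% lower and 24.3% higher). Of the 24 ER genes 14 were lower and none higher, with a median log2 difference of -0.37 against 0.07 over all genes. Among these 14 were 10 of 11 ER chaperones and cofactors and 3 of 4 disulfide isomerases, while none of the 3 sensors and none of the 3 degradation genes passed. Of the cytosolic genes 3 were lower and 2 higher, with a median of 0.00.

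Among ER genes, Sdf2l1 had the largest difference: 6.78, 9.24 and 15.9 CPM in cervix of hCG mice, against 14.9, 19.2 and 25.6 CPM in their myometrium. Only the top of the cervix range met the bottom of the myometrium range, and the log2 difference was -1.03 ± 0.16 (0.491-fold; adjusted p = 2.76e-05, edgeR). Creld2 followed with -0.84 ± 0.14 (adjusted p = 3.94e-05), Calr with -0.77 ± 0.13 (adjusted p = 6.79e-05) and P4hb, the beta subunit of prolyl 4-hydroxylase and a disulfide isomerase, with -0.72 ± 0.13 (adjusted p = 0.000129, edgeR). In hCG mice Calr had 379, 629 and 907 CPM in cervix, against 907, 1082 and 1258 CPM in myometrium, ranges that touched. Manf differed by -0.65 ± 0.11 (0.635-fold; adjusted p = 6.64e-05, edgeR) and its ranges did not overlap, as was so for 7.61% of all genes. Pdia6 and Pdia4, both disulfide isomerases, had -0.62 ± 0.14 and -0.61 ± 0.11. Hspa5 and Hsp90b1 both had -0.54 (SE 0.16 and 0.15). Xbp1, the transcription factor spliced by IRE1, was lower too (-0.39 ± 0.10; 216 ± 31.7 CPM in cervix, 281 ± 35.6 CPM in myometrium; adjusted p = 0.00271, edgeR). The remaining lower ER genes, Hyou1, Dnajb9, Dnajb11 and the lectin Canx, differed by -0.49 to -0.34.

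Cytosolic genes of hCG mice went both ways. Hspb1, an actin-associated small heat shock protein, stood at 54.9, 103 and 214 CPM in cervix, against 275, 456 and 720 CPM in myometrium, with no overlap and a log2 difference of -1.85 ± 0.28 (0.278-fold; adjusted p = 1.71e-05, edgeR). The HSP90 gene Hsp90aa1 (-0.72 ± 0.18, adjusted p = 0.00301) and the constitutive HSP70 gene Hspa8 (-0.51 ± 0.11, adjusted p = 0.000685, edgeR) were lower as well. Dnajb1 was higher, at 35.2, 58.5 and 71.7 CPM in cervix, against 24.6, 30.9 and 44.9 CPM in myometrium (log2 0.83 ± 0.14; 1.77-fold; adjusted p = 5.39e-05, edgeR), with overlap only between the lowest cervix and the highest myometrium libraries. Bag3 (0.45 ± 0.11) and the mitochondrial Hspe1 (0.47 ± 0.11) were the other higher genes. Without hCG cervix libraries 1, 3 and 5, Canx and Hyou1 no longer passed, and Ern1 (0.50) and Eif2ak3 (0.44) were called higher, so that 5 genes were higher.

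In PBS mice, 13 of the 36 genes were higher in cervix and 2 lower (of all genes 54.1% were called, 28.1% higher and 26.1% lower). Of the ER genes 7 were higher (29.2%, near the 28.1% of all genes) and none lower, with a median of 0.09 against 0.04 over all genes. Among these 7 was 1 of 11 chaperones and cofactors, Hyou1 (0.27 ± 0.11, adjusted p = 0.0438, edgeR). The others were Eif2ak3, Edem1, Herpud1, Atf4, Ern1 and Pdia3. The kinase Eif2ak3 stood at 56.3, 74.5 and 99.4 CPM in cervix, against 40.2, 49.0 and 56.3 CPM in myometrium, ranges that met at one value (log2 0.70 ± 0.10; adjusted p = 2.42e-06, edgeR). Edem1 was higher by 0.55 ± 0.10 (adjusted p = 7.77e-05), Herpud1, a membrane protein of ER-associated degradation, by 0.54 ± 0.18 (adjusted p = 0.0137), Atf4 by 0.53 ± 0.15 (adjusted p = 0.00457) and Ern1 by 0.45 ± 0.17 (adjusted p = 0.0275, edgeR). Pdia3, the isomerase that works with the lectins, was higher by 0.31 ± 0.12 (adjusted p = 0.0298, edgeR). Hspa5, Calr and P4hb had 0.07, 0.03 and 0.01 and did not pass.

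Dnajb1 had the largest tissue difference of PBS mice among the 36 genes that were higher, at 64.5, 89.6 and 154 CPM in cervix, against 25.3, 29.4 and 51.0 CPM in myometrium. The ranges did not overlap, as was so for 14.3% of all genes, and the log2 difference was 1.56 ± 0.16 (2.96-fold; adjusted p = 5.43e-08, edgeR). Hspa1b (0.79 ± 0.19, adjusted p = 0.00131), Bag3 (0.68 ± 0.16, adjusted p = 0.000918) and Hsp90ab1 (0.37 ± 0.09, adjusted p = 0.00159, edgeR) were higher in cervix too. Both mitochondrial chaperonin genes were higher, Hspd1 by 0.72 ± 0.13 and Hspe1 by 0.71 ± 0.19. Hspb1 stood at 98.0, 215 and 548 CPM in cervix of PBS mice, against 170, 359 and 781 CPM in their myometrium, ranges that overlapped widely. It (-0.72 ± 0.26, adjusted p = 0.0251) and Hsph1, an HSP110 exchange factor of HSP70 (-0.45 ± 0.15, adjusted p = 0.0175, edgeR), were lower. Without PBS cervix libraries 5 to 8 Hspb1 (-0.62) and Ern1 (0.24) no longer passed, Hspb1 being lost also without all libraries over 1% Lars2 (-0.71) and Ern1 (0.19) likewise. Hyou1, Pdia3 and Ern1 were lost with upper-quartile factors (0.23, 0.26 and 0.42). Hyou1 and Pdia3 were also lost with no filter on low counts (0.25 and 0.28) and with all 40 libraries in 1 fit (0.26 and 0.29). Ern1 passed in 7 of the 11 alternatives. Calls were gained as well. The ER cofactors Dnajc3, Dnajb11 and Manf were called higher in cervix in 4, 3 and 2 alternatives, their differences reaching 0.40, 0.44 and 0.50. Hspa1a was called higher in 1, and Hsp90aa1 lower in 3. The markers of the tissues moved with all of these differences, squamous markers at 1740 to 14557 CPM in hCG cervix and 103 to 216 CPM in hCG myometrium, and 9336 to 43368 CPM in PBS cervix and 99.9 to 211 CPM in PBS myometrium. Tissue and cell composition cannot be told apart here.

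**Figure D4:**
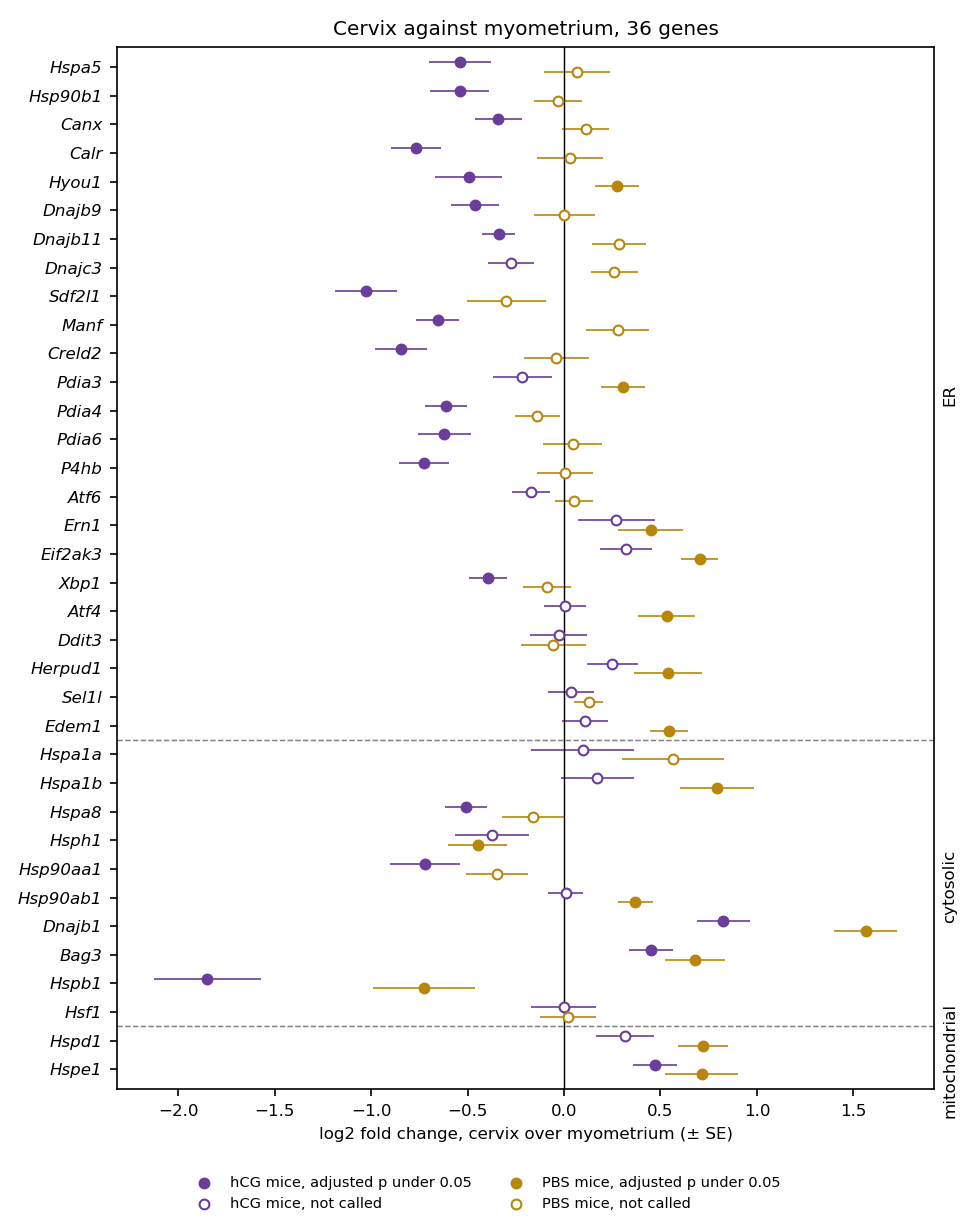
Log2 difference of cervix over myometrium with its SE for all 36 genes, in hCG mice (purple) and PBS mice (gold), with filled points for an adjusted p under 0.05. The ER chaperones and cofactors of hCG mice, except Dnajc3, are filled and left of 0, those of PBS mice lie near 0, and Dnajb1 lies right and Hspb1 left of 0 in both.

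Other genes of these pathways were taken from 9 lists, whose counts in cervix after hCG are read against the 4.17% of all genes called lower and 4.74% higher. Of 16 genes of the integrated stress response, 4 fell and none rose (median -0.35). Among these were Sesn2, a stress-induced inhibitor of mTORC1 signalling, with 6.40 ± 1.60 CPM in hCG cervix and 11.1 ± 4.05 CPM in PBS cervix (log2 -0.79 ± 0.20, adjusted p = 0.0303, edgeR), and Ppp1r15b, a phosphatase subunit that reverses PERK signalling (-0.40 ± 0.11, adjusted p = 0.0321). The next counts were nearer to the share over all genes. Of 16 other degradation genes 1 fell, the ubiquitin ligase Syvn1 (-0.66 ± 0.20, adjusted p = 0.0468, edgeR). Of 23 other cytosolic chaperones 2 fell, the HSP110 gene Hspa4 (-0.52 ± 0.15, adjusted p = 0.0356) and the HSP70 to HSP90 adaptor Stip1 (-0.44 ± 0.13, adjusted p = 0.0392, edgeR). None of 20 other ER folding genes (median -0.19), 20 translocon and secretory pathway genes (median -0.18) or 13 other regulators of the response (median -0.23) passed, nor did the 8 subunits of the cytosolic chaperonin CCT or 10 mitochondrial chaperones and proteases. Of 5 other small heat shock proteins 2 rose and 3 did not pass, while Hspb1 of the same family had the negative value given above. The 2 were Hspb2 (1.77 ± 0.98 CPM in hCG cervix and 0.79 ± 0.29 CPM in PBS cervix; log2 1.20 ± 0.31, adjusted p = 0.0303) and Hspb6 (17.5 ± 21.5 CPM and 5.93 ± 1.32 CPM; log2 1.61 ± 0.50, adjusted p = 0.0476, edgeR). Both are muscle-type members of the family, and the SD of Hspb6 in hCG cervix exceeded its mean. Skeletal muscle markers summed to 27.0 to 5855 CPM in hCG cervix, against 3.29 to 256 CPM in PBS cervix. Smooth muscle markers summed to 1039 to 24986 CPM in hCG cervix, against 2016 to 11809 CPM in PBS cervix. The part of either in these values was not tested. None of these lists held a called gene in myometrium or in the difference between the responses.

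Between the tissues, all 9 lists held called genes, read against 19.4% of all genes lower and 24.3% higher in hCG mice, and 26.1% lower and 28.1% higher in PBS mice. In hCG mice, 9 of 20 other ER folding genes were lower in cervix and none higher, among them the glycoprotein sensor Uggt1 (-0.67) and the prolyl isomerase Ppib (-0.53), and 3 of 20 translocon and secretory genes, a share below that of all genes, were lower and none higher, with the coat subunit Sec23b (-0.98) and the KDEL receptor Kdelr1 (-0.28) among these. In PBS mice 3 of the 20 ER folding genes were lower and 4 higher, both below the share of all genes, among these Txndc11 (0.51) and Erp44 (0.71), and 8 of the 20 translocon and secretory genes were higher and none lower, with the cargo receptors Lman1 (0.45) and Tmed2 (0.49). The other cytosolic chaperones had 2 of 23 higher and 5 lower in hCG mice, and 10 higher and 6 lower in PBS mice. The CCT subunits had 1 of 8 higher in hCG mice and 4 in PBS mice, with none lower. The mitochondrial list had 3 of 10 higher and 1 lower in hCG mice, and 6 higher and 1 lower in PBS mice. The degradation list had 1 of 16 higher and 6 lower in hCG mice, and 4 higher and 3 lower in PBS mice. The integrated stress response genes had 3 of 16 higher and 4 lower in hCG mice, and 6 higher and 5 lower in PBS mice. Of the other regulators 4 of 13 were lower and none higher in hCG mice, and 2 lower and 1 higher in PBS mice, and of the small heat shock genes 2 of 5 were lower in hCG mice and 4 in PBS mice, with none higher. Wfs1, an ER membrane protein tied to calcium, was lower in cervix of both: -3.32 in hCG mice and -2.88 in PBS mice, where its mean was 16.96 ± 6.90 CPM in the cervix, against 123 ± 23.7 CPM in the myometrium. The small heat shock gene Cryab had log2 differences of -2.52 in hCG mice and -3.17 in PBS mice (16.9 ± 5.43 CPM in cervix and 152 ± 51.0 CPM in myometrium of PBS mice; edgeR, adjusted p under 0.05 in both).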

How the data were processed

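The authors deposited 1 table of raw read counts per gene for 40 total RNA libraries made with a stranded Illumina kit, per the labels' protocols. TopHat2 and the build GRCm38 (mm10) were used, per the submitters' processing notes; the sources used here do not give the counting tool, annotation or strand setting, so reads of overlapping and antisense genes cannot be told apart. Gene identifiers were matched to a RefSeq table of GRCm38.p6 (23008 matched; the 71 others held 0.197% of counts and were kept). Genes were filtered with filterByExpr, scaled by TMM factors and tested with edgeR 4.0.16 (quasi-likelihood F-test, robust dispersion, Benjamini-Hochberg threshold 0.05) in R 4.3.3, after a test on simulated data. The hCG comparisons took the 20 libraries of a tissue, the tissue comparisons the 20 libraries of a treatment, and the difference of responses all 40, treated as independent although 1 animal may have given both tissues. Standard errors were obtained by dividing the log2 fold change by √F. RPKM used GENCODE M21 exon lengths. The 36 genes and all lists were chosen with earlier results of these data known. All 36 genes are reported, and of other lists up to 2 called genes with the smallest p per list and comparison. Alternatives were DESeq2 1.42.0, limma 3.58.1 (voom with quality weights), other scalings and filters, depth, squamous and yolk sac terms, the label number as a block, and libraries left out. A planned look at protein ends was not done. The number of libraries and their depth limit the precision.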

Additional observations from a re-analysis of the deposited data

Results flagged for a closer look

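In 8 of 144 sets of 10 libraries, 1 gene in 1 group, a single library lay far from the rest, where chance gives about 1 set in 20. Library 6 of hCG myometrium had the lowest value in 4 of these sets: 623 CPM for Hsp90b1 (next 900 CPM), 79.3 CPM for Atf6 (next 104 CPM), 111 CPM for Sel1l (next 153 CPM) and 817 CPM for Hsp90ab1 (next 1007 CPM). Library 6 of PBS myometrium was lowest for Dnajb11, at 46.9 CPM (next 60.8 CPM), and library 5 of hCG cervix for Xbp1, at 151 CPM (next 199 CPM). Hsph1, the HSP110 exchange factor, was highest in library 7 of hCG cervix, at 108 CPM (next 59.3 CPM), and in library 1 of PBS myometrium, at 131 CPM (next 90.3 CPM). The hCG response of Manf differed between cervix and myometrium, by -0.93 on the log2 scale (edgeR adjusted p = 0.0392).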

How the results depend on the processing

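No called gene changed sign under the alternatives run. In cervix, 5 of the 36 genes and 1331 genes in all were called; the counts were 12 and 3424 with all 40 libraries in 1 fit, 11 and 2283 with DESeq2, and 3 and 508 with depth class as a term. The deeper libraries alone called 4 of the 36 and 242 genes. Both counts were 0 in the shallower libraries, with the squamous covariate and without hCG libraries 1, 3 and 5, and they were 0 and 1 without PBS libraries 5 to 8. Leaving out 1 library gave 0 to 11 of the 36 and 1 to 2065 genes. In myometrium, 0 of the 36 and 2 genes were called; DESeq2 called 3 higher and 384 genes. The gene count was 4 with all 40 libraries, 5 with the yolk sac covariate, 0 with voom weights and 1 without libraries over 1% Lars2, and leaving out 1 library gave 0 to 1 higher and 1 to 137 genes. For the difference of responses (1 of the 36 lower, 55 genes), DESeq2 gave 10 and 566, voom weights 13 and 576, the replicate block 0 and 0, no filter 24 genes, and leaving out 1 library 0 to 13 and 0 to 678. Without hCG cervix libraries 1, 3 and 5 it was 0 and 2, and without PBS cervix libraries 5 to 8 it was 15 and 1138; these settings were chosen after seeing the data. Between tissues, 5 rather than 3 were higher in hCG mice with upper-quartile factors or without hCG cervix libraries 1, 3 and 5, and 1 rather than 2 lower in PBS mice without PBS cervix libraries 5 to 8 or those over 1% Lars2. Where not stated above, the cause was not tested.

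Same-numbered libraries did not deviate together in every pair, so the number was not taken as a pairing: in cervix 4 of 9 pairs had a correlation over 0.1 (median 0.09, against -0.02 for other pairs), in myometrium 3 of 8 (-0.06, against -0.01), in hCG mice 3 of 9 (0.06, against -0.02) and in PBS mice 5 of 9 (0.14, against -0.02). A library correlated best with its own number in 2 or 3 pairs of each comparison. Pairs of cervix and myometrium ran from -0.25 to 0.58 in PBS mice and from -0.12 to 0.33 in hCG mice. Only such pairs, within 1 treatment, could come from 1 animal, and the labels do not say whether they do. The label number as a replicate block called 5 of the 36 genes lower in cervix (Hyou1, Creld2, Hspa1a, Dnajb1 and Hspb1), and 0 in myometrium, where the cytosolic median became 0.11. It ended the tissue calls of Canx and Hspa5 in hCG mice and of Hyou1 in PBS mice, and Manf had a difference of -0.96 under it (edgeR adjusted p = 0.0666). The fewest counts behind a value of the 36 genes were 37 (Ddit3, hCG myometrium).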
